A study of Homo sapiens with 8 samples.

Results

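RNA of 9 genes that put uracil into DNA or take it out was followed in pull-down libraries from edited leukaemia cells. The genes were chosen by name: 5 APOBEC3 cytidine deaminases (APOBEC3B, APOBEC3C, APOBEC3D, APOBEC3F and APOBEC3G) and 4 DNA glycosylases (UNG, SMUG1, MBD4 and TDG). All 9 were found among the 63140 genes of the count table, and all 9 passed the filter on low counts that left 24057 genes for testing. The study applied chromatin isolation by RNA purification (ChIRP), in which biotinylated probes pull an RNA out of sonicated, glutaraldehyde-fixed lysate, and the RNA that came down was sequenced. The RNA that the probes bind is not stated in the sources used here, and no input library was named, so the values tell how much RNA came down and not how much the cells held.

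The cells were labelled MOLM13 and OCI-AML4, established lines from human acute myeloid leukaemia, and were collected on day 3 after nucleofection. Knockout (KO) groups had received Cas9 protein with a guide RNA, which cuts DNA, and base editing (CBE) groups a cytosine base editor with a guide RNA. AAVS1 KO and AAVS1 CBE were edited at AAVS1, a site widely used as an editing control, and are labelled wild type. HOTSCRAMBL KO and HOTSCRAMBL CBE were edited at the long non-coding RNA HOTSCRAMBL. Each of the 4 groups held 2 libraries, 1 labelled MOLM13 (replicate 1) and 1 labelled OCI-AML4 (replicate 2), so by the labels a group holds 1 culture of each line and its spread mixes line and sample. The line labels were not checked against a library of known line. HOTSCRAMBL itself was looked up by name in the table, which gave 0 genes, and its RNA is not analysed here. All cells, controls included, had been nucleofected and edited, and no unedited library was compared.

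APOBEC3 proteins deaminate cytosine to uracil in single-stranded DNA. They restrict retroviruses and retroelements, and APOBEC3B in particular is known as a source of mutations in tumours. Uracil DNA glycosylases remove the uracil base and so start base excision repair, which is completed by an endonuclease, a polymerase and a ligase. The same chemistry underlies a cytosine base editor, a Cas9 variant joined to a cytidine deaminase and commonly to an inhibitor of UNG. Which deaminase the editor of this study carried is not stated in the sources used here.

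The APOBEC3 genes lie side by side on chromosome 22 (GRCh38, plus strand) and are near-copies of each other over parts of their exons. This matters for the values, because reads placed at several positions or over several genes were not counted. By the exon coordinates of the table, APOBEC3B (ENSG00000179750) spans 38982347 to 38992804, APOBEC3C (ENSG00000244509) spans 39014257 to 39020352, APOBEC3D (ENSG00000243811) spans 39021113 to 39033277, APOBEC3F (ENSG00000128394) spans 39040604 to 39055972 and APOBEC3G (ENSG00000239713) spans 39077067 to 39087743. Of the different 50-base stretches of each gene's transcripts in GENCODE v29, 86.2% were also found in transcripts of another gene for APOBEC3D, 40% for APOBEC3B, 21% for APOBEC3F, 7.73% for APOBEC3G and 1.28% for APOBEC3C. APOBEC3B shared most with APOBEC3A. APOBEC3D also shares 83.2% of its exon bases with ENSG00000284554 on the same strand, so a read there belonged to 2 genes and was left out. Counts of APOBEC3D, APOBEC3B and APOBEC3F are therefore minimum values, and APOBEC3C is the gene of the cluster that this loss touches least.

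The longest exact match between the coding sequence of APOBEC3C and that of another APOBEC3 gene is shown because it is where APOBEC3C reads can be lost. It is 81 bases long, identical in APOBEC3F, and lies at chr22:39017889-39017969 (GRCh38, plus strand). The capitals mark the 73 bases that are also identical in APOBEC3D.
APOBEC3C: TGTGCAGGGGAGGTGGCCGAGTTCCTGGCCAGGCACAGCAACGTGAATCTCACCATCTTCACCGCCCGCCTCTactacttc
Between APOBEC3C and APOBEC3B the longest coding match was 23 bases, and between APOBEC3C and APOBEC3G it was 18.

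The glycosylase genes are spread over the genome and have fewer copies. UNG (ENSG00000076248) lies on chromosome 12 from 109097597 to 109126725, and none of its 50-base stretches occurred in another gene. Its nuclear and mitochondrial forms come from different starts and were counted together. SMUG1 (ENSG00000123415) lies on chromosome 12 from 54121277 to 54189008, and 1.9% of its stretches were shared. TDG (ENSG00000139372) lies on chromosome 12 from 103965822 to 103988874, with 6.74% shared, all with the pseudogene TDGP1. MBD4 (ENSG00000129071) lies on chromosome 3 from 129430947 to 129440179 on the minus strand.

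MBD4 starts head to head with IFT122, a gene of the opposite strand. Because strand was not used in counting, reads over the 279 exon bases that both genes hold could be assigned to neither. The region around the MBD4 start (RefSeq, GRCh38.p14, chr3:129439899-129440198, minus strand) is shown for that reason, with the 144 of its 300 bases that lie in exons of both genes in capitals.
MBD4: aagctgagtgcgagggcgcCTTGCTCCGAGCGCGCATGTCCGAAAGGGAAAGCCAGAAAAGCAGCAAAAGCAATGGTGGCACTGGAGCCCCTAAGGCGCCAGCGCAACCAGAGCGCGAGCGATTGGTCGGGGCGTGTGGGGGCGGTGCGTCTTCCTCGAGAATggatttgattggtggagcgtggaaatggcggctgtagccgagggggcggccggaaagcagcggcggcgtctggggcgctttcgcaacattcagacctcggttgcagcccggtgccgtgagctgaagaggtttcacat
The shared exon bases are 8.3% of the exon length of MBD4, so most of the gene was countable.

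The libraries held 20548300 to 37970163 counts, and a floor of 3 counts corresponded to between 0.0831 and 0.153 CPM, the count scaled to a common library total after adjustment by the trimmed mean of M values (TMM). Markers of myeloid leukaemia cells summed to 1630 and 1820 CPM in HOTSCRAMBL KO and to between 1170 and 1290 CPM in the other 6 libraries. CD3E and CD2 of T cells, HBB of erythroid cells and PPBP and PF4 of platelets had 0 counts in all libraries, and CD14 of monocytes had at most 2.59 CPM. Other markers of these lineages were not absent. CD3D reached 46 counts in a library, ALAS2 60, ITGA2B 92 and GP9 70. The epithelial marker KRT8 reached 107 counts. Summed by list, the highest library had 2.6 CPM of T cell, 1.66 of erythroid, 4.11 of platelet and 5.4 of epithelial markers. The B cell genes MS4A1, CD79A and CD79B had at most 16 counts. Nothing in the labels says that libraries of a group came from repeated cultures of a line, so p-values measure the spread between these libraries.

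To compare levels between genes, CPM were divided by exon length. MBD4, a glycosylase that removes uracil and thymine mispaired with guanine at CpG sites, had the highest level of the 9 genes, at 16.2 ± 2.00 CPM per kb (mean and SD over all 8 libraries). APOBEC3C followed at 5.81 ± 2.88 CPM per kb and was below MBD4 in 8 of 8 libraries. UNG, the main enzyme that removes uracil from replicated DNA, stood at 2.81 ± 0.623 CPM per kb, TDG at 2.56 ± 0.833 and SMUG1 at 2.09 ± 0.459. APOBEC3C was above UNG in 6 of 8 libraries, UNG above TDG in 5 and TDG above SMUG1 in 7. The ranges of these neighbours overlapped, so only the place of MBD4 was the same in every library.

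At the lower end came APOBEC3B with 1.19 ± 1.85 CPM per kb and APOBEC3G with 0.709 ± 0.316, and APOBEC3B was the higher of the pair in only 4 of 8 libraries. APOBEC3D and APOBEC3F, at 0.0896 and 0.057 CPM per kb, had at most 28 and 34 counts in a library. Their order, like all levels of the multicopy members, depends on the reads that were not counted. Summed over the 5 APOBEC3 genes, the level per kb was 3.55 and 4.94 in the AAVS1 KO libraries labelled MOLM13 and OCI-AML4 against 8.91 and 6.02 for HOTSCRAMBL KO. It was 5.99 and 6.14 in AAVS1 CBE against 17 and 10.4 for HOTSCRAMBL CBE. The summed level per kb was thus higher in both HOTSCRAMBL groups than in the AAVS1 group of the same editor, without overlap. Of single tested genes, 44.8% with KO and 46.4% with CBE also did not overlap, in either direction. APOBEC3C made up between 59.1% and 89.9% of the summed level. The 4 glycosylases together stayed between 20.6 and 26.1 CPM per kb.

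**Figure D1:**
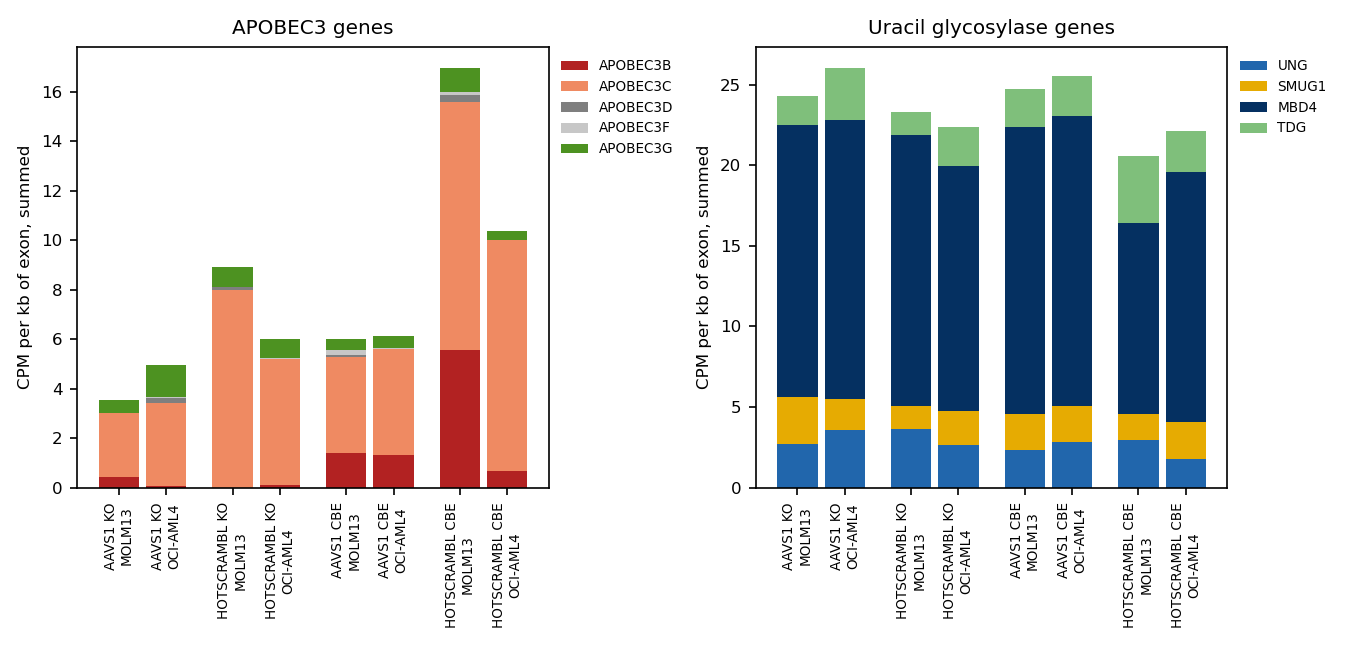
Stacked CPM per kb of exon for the 5 APOBEC3 genes (left) and the 4 glycosylase genes (right), 1 bar for each library, named by group and labelled line; each axis starts at 0. APOBEC3C fills most of every APOBEC3 bar and the bars of HOTSCRAMBL CBE reach 17 and 10.4, while the glycosylase bars lie between 20.6 and 26.1 with MBD4 as the main part.

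APOBEC3C, a deaminase of a single catalytic domain, passed the test between HOTSCRAMBL and AAVS1 cells with CBE and in the average of both editors, but not with KO. It had 6.82 and 8.88 CPM in AAVS1 KO (MOLM13 first, OCI-AML4 second) and 21.1 and 13.5 CPM in HOTSCRAMBL KO. With the base editor it had 10.2 and 11.3 CPM in AAVS1 CBE and 26.6 and 24.6 CPM in HOTSCRAMBL CBE. The counts behind these values ran from 174 to 958. In such bulk libraries fewer cells with an RNA and less of it per cell cannot be told apart. Within each editor, both HOTSCRAMBL libraries lay above both AAVS1 libraries, which was also so, in either direction, for 44.8% of all tested genes with KO and 46.4% with CBE.

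With CBE the APOBEC3C level rose from a mean of 10.8 ± 0.759 CPM to one of 25.6 ± 1.37 (SD, n = 2), and the log2 fold change was 1.26 (SE 0.33, 95% interval 0.58 to 1.94, edgeR adjusted p 0.014). It was the only one of the 9 genes called, that is, with an edgeR adjusted p under 0.05 over all genes tested, and 1 of 9 is near the 8.83% of all genes (4.56% higher and 4.27% lower) called in that comparison. The call was lost in a fit of only the 4 CBE libraries (1.26, edgeR adjusted p 0.0795) and whenever 1 of these 4 was left out, with log2 fold changes from 1.08 to 1.40 and edgeR adjusted p from 0.102 to 0.322. Leaving out AAVS1 CBE replicate 1 gave 1.08, AAVS1 CBE replicate 2 gave 1.40, HOTSCRAMBL CBE replicate 1 gave 1.26 and HOTSCRAMBL CBE replicate 2 gave 1.25.

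With KO the APOBEC3C means were 7.85 ± 1.46 and 17.3 ± 5.42 CPM (SD, n = 2), and the log2 fold change was 1.12 (SE 0.436, 95% interval 0.23 to 2.02). Its edgeR adjusted p was 0.124, and 0 of the 9 genes were called against 8.76% of all genes (4.51% higher and 4.25% lower). DESeq2 on the same genes called it (1.15, adjusted p 0.00625), as did DESeq2 with its own filter (adjusted p 0.0404). These fits called 4150 and 2957 of all genes with KO, against 2108 by edgeR. The ratio of HOTSCRAMBL KO to AAVS1 KO was larger between the libraries labelled MOLM13 (log2 1.63) than between those labelled OCI-AML4 (log2 0.60). With CBE the line ratios were 1.38 and 1.12.

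The difference of the KO and CBE effects on APOBEC3C was −0.13 on the log2 scale (95% interval −1.29 to 1.02, edgeR adjusted p 0.962), an interval that reaches beyond 1 log2 unit in both directions. No member was called for that difference, against 3.19% of all genes. The average of both effects was 1.19 (SE 0.274, 95% interval 0.63 to 1.75, edgeR adjusted p 0.00325), and APOBEC3C was the 1 member called there against 12.3% of all genes. This call was lost without AAVS1 KO replicate 1 (1.05, edgeR adjusted p 0.0659) and without HOTSCRAMBL KO replicate 1 (1.01, edgeR adjusted p 0.0625).

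A further set of RNAs moved with APOBEC3C. The list of 10 abundant cytosolic mRNAs summed to 4830 and 5600 CPM in AAVS1 KO against 13400 and 15600 in HOTSCRAMBL KO, and to 4770 and 5810 CPM in AAVS1 CBE against 11900 and 12700 in HOTSCRAMBL CBE. Of these 10 genes, 9 were called higher with KO and 10 with CBE, against 4.51% and 4.56% of all genes. The list was chosen with earlier results of these data known. The part of the shift of these mRNAs in the APOBEC3C result was not tested. Over the 8 libraries the log2 level of APOBEC3C ran most closely with those of SRSF3, a splicing factor (Pearson r 0.988), NDRG1 (0.984) and MDH1, cytosolic malate dehydrogenase (0.978), among 9644 genes with a mean of at least 10 CPM. These coefficients describe 8 points that share the 4 groups, and the 3 genes were picked as the highest.

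**Figure D2:**
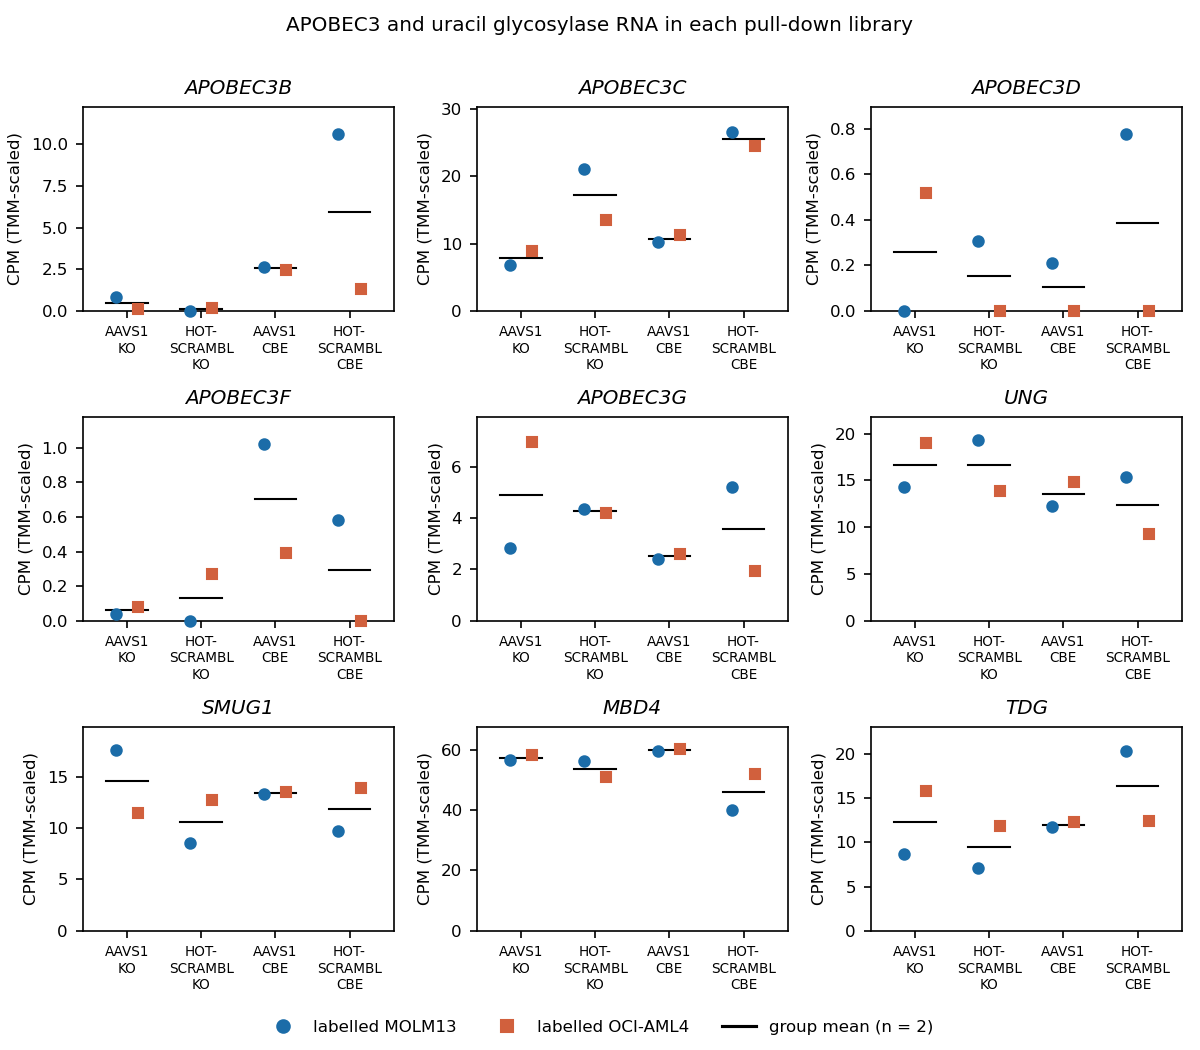
CPM (TMM-scaled) of each of the 9 genes in each library, 1 panel for each gene with its own axis from 0; circles are libraries labelled MOLM13, squares those labelled OCI-AML4, and the bar is the mean of the 2. APOBEC3C is higher in HOTSCRAMBL than in AAVS1 libraries with either editor, and APOBEC3B is higher in the CBE libraries (1.3 to 10.6) than in the KO libraries (0 to 0.823).

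APOBEC3B, a nuclear deaminase with a pair of catalytic domains, had more counts in the CBE than in the KO libraries. It had 21 and 3 counts in AAVS1 KO and only 0 and 4 in HOTSCRAMBL KO, whereas the AAVS1 CBE libraries had 88 and 70 and the HOTSCRAMBL CBE libraries 381 and 33. In CPM these were 0.823, 0.12, 0 and 0.179 for KO and 2.64, 2.47, 10.6 and 1.3 for CBE. Each of the 4 CBE libraries was above each of the 4 KO libraries, and APOBEC3B was the 1 gene of the 9 for which the editors did not overlap. Over all tested genes 3.08% did not overlap in this way, and 1.82% were higher with CBE. The editor's deaminase and the form in which the editor was delivered are not stated in the sources used here, and the counts cannot tell reads of an editor's RNA from those of the cells' own genes. Their part in the APOBEC3B values was not tested.

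The comparison of the mean of both CBE groups with the mean of both KO groups was added after these values were seen, so its test supports nothing independently. It gave a log2 fold change of 4.13 (SE 1.03, 95% interval 2.02 to 6.24, edgeR adjusted p 0.0209), with 1 of 9 members called against 3.35% of all genes. The size rests on KO libraries near the floor and is imprecise. With 21, 3, 0 and 4 counts in the KO libraries, APOBEC3B passed the low-count filter through the CBE libraries, where it was high. Neither the test nor the lack of overlap between the editors is therefore support for a difference. The call was lost in 7 of 8 fits that left out a library, with log2 fold changes of 4.56 and 4.04 without AAVS1 KO replicate 1 and 2, 3.15 and 6.70 without HOTSCRAMBL KO replicate 1 and 2, 5.12 and 3.74 without AAVS1 CBE replicate 1 and 2, and 3.13 without HOTSCRAMBL CBE replicate 1. It was kept without HOTSCRAMBL CBE replicate 2 (4.49, edgeR adjusted p 0.0313).

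Between the controls alone, AAVS1 CBE against AAVS1 KO, the log2 fold change of APOBEC3B was 2.38 (95% interval −0.18 to 4.94, edgeR adjusted p 0.991). No member was called there, against 0% of all genes. By edgeR 918 genes had an unadjusted p under 0.05 in that comparison, fewer than the 1203 that chance alone would give, and DESeq2 called 35 genes on the same genes and 4 with its own filter. Within CBE, HOTSCRAMBL against AAVS1 gave 1.30 for APOBEC3B (95% interval 0.02 to 2.58, edgeR adjusted p 0.237), a value carried by the library labelled MOLM13. Without HOTSCRAMBL CBE replicate 1 it turned to −0.81, and without AAVS1 CBE replicate 1 to −0.77. The ratio was log2 2.00 between the libraries labelled MOLM13 and −0.93 between those labelled OCI-AML4.

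APOBEC3G, the deaminase best known for restricting HIV, had 2.82 and 6.96 CPM in AAVS1 KO against 4.34 and 4.20 in HOTSCRAMBL KO, and 2.40 and 2.61 CPM in AAVS1 CBE against 5.21 and 1.93 in HOTSCRAMBL CBE. The HOTSCRAMBL and AAVS1 libraries overlapped with either editor. Its log2 fold change was −0.19 with KO (95% interval −1.62 to 1.23) and 0.62 with CBE (95% interval −0.86 to 2.11), intervals too wide to exclude a change of more than 1 log2 unit in either group's favour with KO.

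APOBEC3D and APOBEC3F, further antiviral deaminases with a pair of domains, were too sparse for a fold change. APOBEC3D had 0 and 13 counts in AAVS1 KO against 6 and 0 in HOTSCRAMBL KO, and 7 and 0 counts in AAVS1 CBE against 28 and 0 in HOTSCRAMBL CBE. APOBEC3F had 1 and 2 counts in AAVS1 KO against 0 and 6 in HOTSCRAMBL KO, and 34 and 11 counts in AAVS1 CBE against 21 and 0 in HOTSCRAMBL CBE. Neither gene was called in any comparison, and no difference was detectable at this depth.

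None of the 4 glycosylases was called in any comparison. UNG had 14.3 and 19.0 CPM in AAVS1 KO against 19.3 and 13.9 in HOTSCRAMBL KO, and 12.3 and 14.8 CPM in AAVS1 CBE against 15.4 and 9.29 in HOTSCRAMBL CBE. These libraries overlapped in both pairs of groups. The log2 fold change of UNG was −0.02 with KO (95% interval −0.81 to 0.78) and −0.08 with CBE (95% interval −0.85 to 0.69).

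MBD4 was measured most precisely, with 1102 to 1986 counts. It had 56.6 and 58.1 CPM in AAVS1 KO against 56.2 and 50.8 in HOTSCRAMBL KO, and 59.6 and 60.3 CPM in AAVS1 CBE against 39.9 and 51.9 in HOTSCRAMBL CBE. Both HOTSCRAMBL libraries lay below both AAVS1 libraries with either editor, by little with KO. Over all tested genes 44.8% with KO and 46.4% with CBE did not overlap, in either direction. The log2 fold change was −0.10 with KO (95% interval −0.54 to 0.33) and −0.41 with CBE (SE 0.197, 95% interval −0.81 to 0.00, edgeR unadjusted p 0.0499, adjusted p 0.248), so the CBE value failed the correction. EMILIN1 (Pearson r 0.975), TRAPPC12 (0.972) and IDUA (0.968) ran most closely with MBD4 over the 8 libraries, again as a description of 8 points in 4 groups.

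SMUG1, a glycosylase that acts on single- and double-stranded DNA, had 17.6 and 11.5 CPM in AAVS1 KO against 8.52 and 12.7 in HOTSCRAMBL KO, and 13.3 and 13.5 CPM in AAVS1 CBE against 9.76 and 13.9 in HOTSCRAMBL CBE. The groups overlapped with either editor, and the log2 fold changes were −0.44 with KO (95% interval −1.34 to 0.45) and −0.21 with CBE (95% interval −1 to 0.57).

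TDG, the thymine DNA glycosylase that also excises oxidised methylcytosine during demethylation, had 8.70 and 15.8 CPM in AAVS1 KO against 7.09 and 11.9 in HOTSCRAMBL KO, and 11.7 and 12.3 CPM in AAVS1 CBE against 20.3 and 12.4 in HOTSCRAMBL CBE. The KO groups overlapped and the CBE groups did not, although the OCI-AML4 library of HOTSCRAMBL CBE was level with the controls. Over all tested genes 46.4% did not overlap with CBE, in either direction. The log2 fold change was −0.34 with KO (95% interval −1.33 to 0.66) and 0.51 with CBE (95% interval −0.26 to 1.28), and the difference between them was −0.85 (95% interval −2.11 to 0.41, edgeR adjusted p 0.587).

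**Figure D3:**
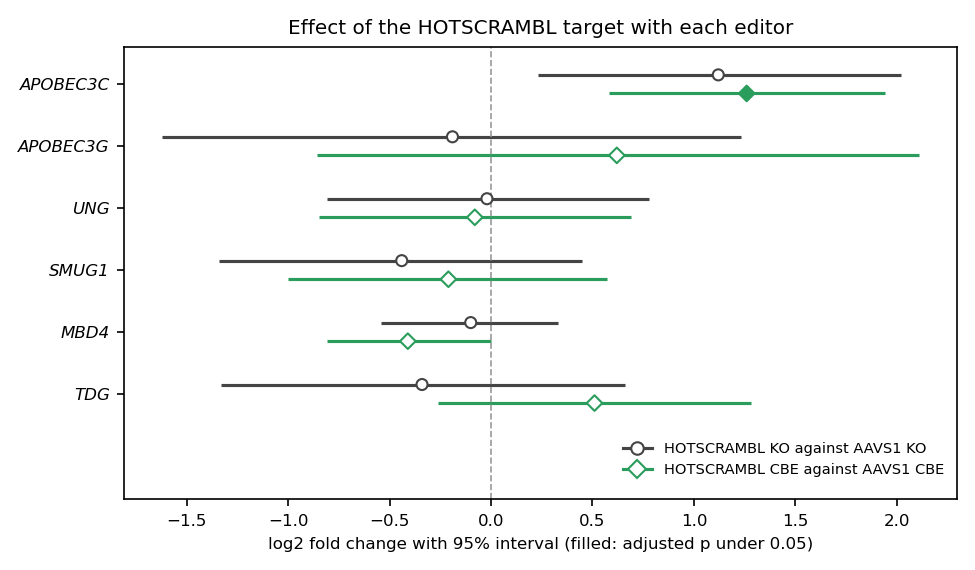
log2 fold change of HOTSCRAMBL against AAVS1 libraries with KO (circles) and CBE (diamonds) for the 6 genes with enough counts in every library; lines are 95% intervals of the edgeR fit, filled symbols are calls and the dashed line is no change. Only APOBEC3C with CBE (1.26, interval 0.58 to 1.94) is filled, and the intervals of UNG, SMUG1 and TDG span 0.

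The labelled lines were also compared. Between libraries labelled MOLM13 and OCI-AML4, 0 of the 9 genes were called against 0.495% of all genes. APOBEC3B had the largest value, a log2 fold change of 1.73 (95% interval 0.38 to 3.08, edgeR unadjusted p 0.014, adjusted p 0.381). It fell to 0.31 when HOTSCRAMBL CBE replicate 1 or replicate 2 was left out, and was 1.1 (SE 0.874) with DESeq2 on the same genes. The other 8 genes had an edgeR unadjusted p of 0.463 or more. Differences between the labels correlated between groups with r of at most 0.0245 across all tested genes. Among genes above the median level r was 0.0411 to 0.117.

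Deaminases outside the 9 genes were scarce. APOBEC1 had 0 counts in all libraries and APOBEC3A at most 1, and neither was tested. APOBEC2 ranged from 1.80 to 10.1 CPM, and APOBEC3H had at most 34 counts. Of the 3 tested deaminases, 0 were called with KO or CBE. Of 7 other DNA glycosylases, most of which remove oxidised or alkylated bases, 1 was called with KO and 0 with CBE. It was NEIL1, which fell with KO from 30.3 ± 2.23 to 13.1 ± 5.11 CPM (log2 fold change −1.20, edgeR adjusted p 0.0262). That call was lost whichever library was left out, and the CBE value was −0.71 (edgeR adjusted p 0.0766).

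Of the 13 genes described that act after the glycosylase, 2 rose and 2 fell with KO, and 1 rose and 1 fell with CBE. FEN1, the flap endonuclease of long-patch repair and Okazaki fragment processing, rose with both. With KO its mean was 77.0 ± 6.63 CPM in AAVS1 and 160 ± 9.94 CPM in HOTSCRAMBL cells (log2 fold change 1.06, SE 0.152, edgeR adjusted p 1.89e-05). With CBE the means were 91.0 ± 4.50 and 214 ± 9.76 CPM (1.24, SE 0.137, edgeR adjusted p 3.67e-07). LIG1, the replicative DNA ligase, fell with KO from 334 ± 53.5 to 217 ± 3.14 CPM (−0.62, edgeR adjusted p 0.00176) and with CBE from 328 ± 32.7 to 251 ± 25.5 CPM (−0.39, edgeR adjusted p 0.0427). LIG3, the ligase partner of XRCC1, fell with KO (−0.52), and APLF, a factor of strand-break repair, rose with KO (2.66).

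Leaving out single libraries did not end the FEN1 calls. With KO, LIG1 lost its call without replicate 1 of either KO group, and with CBE without any library other than HOTSCRAMBL CBE replicate 2. LIG3 lost its call without any of the KO or AAVS1 CBE libraries, and APLF without any KO library other than HOTSCRAMBL KO replicate 2. The median log2 fold change of the 13 genes was −0.26 with KO and 0.08 with CBE, beside −0.01 and −0.02 over all tested genes.

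SAMHD1 had the smallest p among genes of uracil and deoxynucleotide supply. It breaks down deoxynucleotides and, like APOBEC3 proteins, restricts retroviruses. With KO it rose from 184 ± 11.2 CPM in the control to 723 ± 12 (log2 fold change of 1.98 with SE 0.11, edgeR adjusted p 5.03e-13) and was at 203 ± 7.82 and 183 ± 8.33 CPM in AAVS1 CBE and HOTSCRAMBL CBE (−0.15, edgeR adjusted p 0.522). The difference of the effects was 2.12 (edgeR adjusted p 1.4e-09), and leaving out single libraries did not end the KO call. Of the 10 myeloid markers, 3 were called higher with KO and 2 with CBE, and none was called lower. The list did not rise as a whole: its median was −0.06 for KO and 0.02 for CBE on the log2 scale. In the average of both editors, LYZ (1.22) and CEBPA (0.8) were called higher. MPO (−0.73), ITGAM (−0.87) and CD33 (−0.33) were called lower there. MPO and ITGAM lost these calls without replicate 1 of any group, and ITGAM also with DESeq2 on the same genes. CD33 lost its call without any library other than HOTSCRAMBL KO replicate 1 and HOTSCRAMBL CBE replicate 2, and also without the term for labelled line. LYZ, the lysozyme of monocytes and granulocytes, rose with KO from 130 ± 14.9 to 604 ± 139 CPM (2.20, edgeR adjusted p 9.41e-13), CEBPA, a myeloid transcription factor, by 1.00 and CSF1R, the receptor for macrophage colony-stimulating factor, by 0.69. With CBE the values were 0.23 for LYZ, 0.61 for CEBPA and −0.53 for CSF1R and the 2 called were CEBPA and PTPRC (0.67). CSF1R lost its KO call without AAVS1 KO replicate 2 or any 1 of the HOTSCRAMBL KO and AAVS1 CBE libraries, CEBPA its CBE call without any CBE library other than HOTSCRAMBL CBE replicate 1, and PTPRC without any CBE library other than AAVS1 CBE replicate 1. The part of the myeloid markers in the SAMHD1 result was not tested. RRM2B, a small ribonucleotide reductase subunit, rose with KO (0.70, edgeR adjusted p 0.00359) and RRM1, the large subunit, with CBE (0.84, edgeR adjusted p 0.0298). Of the 9 tested genes, 2 rose with KO and 1 with CBE, and none fell. RRM2B lost its call without either AAVS1 KO library or HOTSCRAMBL KO replicate 1, and RRM1 without any library other than AAVS1 CBE replicate 1.

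Among 5 RNA adenosine deaminases, 0 were called with KO and 1 with CBE: ADARB1, an RNA editing enzyme, fell from 146 ± 1.69 to 89.1 ± 0.300 CPM (log2 fold change −0.71, edgeR adjusted p 0.00127). Its call was lost without AAVS1 CBE replicate 1 or HOTSCRAMBL CBE replicate 2. Several APOBEC3 genes are interferon-inducible, and of 16 interferon response genes 1 rose with KO (IRF7, 0.96) and 6 rose with CBE. Levels were low: IFI6 went from 0.212 ± 0.300 to 9.16 ± 1.74 CPM (edgeR adjusted p 0.000346), MX1 from 1.30 ± 0.264 to 11.5 ± 3.11 (edgeR adjusted p 0.000854), OAS3 from 1.22 ± 1.42 to 10.9 ± 4.02 (edgeR adjusted p 0.00292) and IFIT3 from 1.32 ± 1.66 to 6.67 ± 2.09 (edgeR adjusted p 0.0269). Every one of these 4 calls was lost without AAVS1 CBE replicate 1, MX1 also without AAVS1 CBE replicate 2, OAS3 without any CBE library, and IFIT3 without any library other than those of HOTSCRAMBL KO. IRF7 lost its call without AAVS1 KO replicate 2 or HOTSCRAMBL KO replicate 1. The summed interferon list ranged from 269 to 391 CPM, with 391 and 354 in HOTSCRAMBL CBE, and its part in the APOBEC3C and APOBEC3B values was not tested.

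Of 16 proliferation genes, many of which act at the replication fork with UNG and FEN1, 3 fell with KO and 7 rose with CBE. The median log2 fold change of the list was −0.35 with KO and 0.37 with CBE. TOP2A, a DNA topoisomerase, was called in opposite directions, with −0.61 for KO and 1.04 for CBE (difference −1.65, edgeR adjusted p 3.76e-05). Without any 1 of the 4 KO libraries the TOP2A call with KO was lost. MCM7 and MCM3, subunits of the replicative helicase, fell with KO (−0.75 and −0.71) and had −0.08 and 0.02 with CBE. PCNA, the sliding clamp, rose with CBE from 72.0 ± 13.9 to 181 ± 9.01 CPM (1.34, edgeR adjusted p 3.15e-07) and had 0.49 with KO (edgeR adjusted p 0.101). The other genes that rose with CBE were CCNB1, MKI67, MCM6, BUB1 and CDK1, and each lost its call without 1 or more single libraries. Among 6 nuclear-retained RNAs, MALAT1 rose with KO (0.81) and NEAT1 fell with both editors (−0.32 and −0.26). With CBE, TUG1 rose (0.44) and KCNQ1OT1 fell (−0.49). NEAT1 lost its KO call without any 1 of the KO libraries. The CBE calls of NEAT1, TUG1 and KCNQ1OT1 were lost without either AAVS1 KO library or any CBE library.

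**Figure D4:**
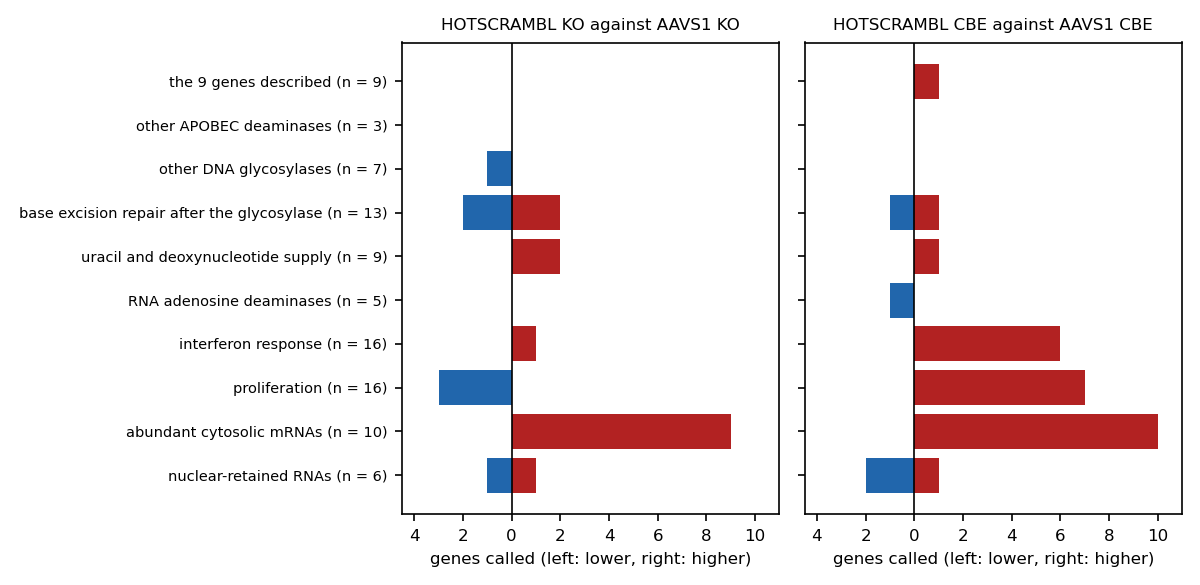
Number of genes with an edgeR adjusted p under 0.05 in each list, lower to the left and higher to the right of 0, for HOTSCRAMBL against AAVS1 with KO and with CBE; n is the number of genes tested. The 9 genes described here have 0 calls with KO and 1 with CBE, whereas 9 and 10 of 10 abundant cytosolic mRNAs are higher. Over all tested genes 4.51% are called higher and 4.25% lower with KO, and 4.56% and 4.27% with CBE. The lists were chosen with earlier results of these data known.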

How the data were processed

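Gene counts came from the authors' deposited table. Per the file headers, featureCounts 2.0.6 counted reads with the Ensembl 112 annotation of GRCh38 without strand, both reads of a pair separately, and left out reads placed at several positions or over several genes. The deposited counts were not normalised. The records of 2 genes broken over lines were rejoined, 62541 identifiers (99.05%) had a symbol, and 0 columns were left over.

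The 9 genes and all lists were chosen with earlier results of these data known. Counts were tested in R 4.3.3 with edgeR 4.0.16 (quasi-likelihood F-test, robust, TMM scaling, filterByExpr at a minimum count of 10) on all 8 libraries, with terms for group and labelled line (3 residual degrees of freedom). P-values were adjusted by Benjamini-Hochberg over 24057 genes, threshold 0.05. The self-check used simulated data for the KO comparison. It called 23% of changes of 1 log2 unit and 57% of changes of 2 log2 units, with 0 false calls. A gene without a call may therefore still differ. The changes were placed in 100 well-counted genes for each size, so sparse genes such as APOBEC3D and APOBEC3F were not covered. Counts were drawn from the fitted spread without a line effect, so the 0 false calls do not vouch for the calls in the real data. Context genes were named by p: up to 4 per list with KO and 4 with CBE among called genes, otherwise the 2 with the highest level. Some genes of the lists are not reported here.

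The replicate number marks the labelled line. Line differences correlated between groups with r of 0.00851 to 0.0245 across all tested genes. Among genes above the median level r was 0.0411 to 0.117, still low, so the pairing rests on the labels. Libraries of a group differed by more than counting noise (chi-square per degree of freedom 36.7 to 44.2). That chi-square treats counts as independent and is raised by the counting of both reads of a pair. Of the low counts in a library, 71.8% to 74.9% were even, so counts overstate the number of fragments. Alternatives were DESeq2 1.42.0, limma 3.58.1 (voom), other scalings and filters, no line term, fewer libraries and, chosen after seeing the data, edgeR's legacy quasi-likelihood. Floors cover counting error only. Promoter windows were matched by symbol for 3 of the 9 genes (UNG, MBD4 and TDG). Protein sequences were not used here.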

Additional observations from a re-analysis of the deposited data

Results flagged for a closer look

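In the edgeR test of the difference, KO and CBE effects of HOTSCRAMBL differed for 13 context genes named by the rule above. They differed for 0 of the 9 deaminase and glycosylase genes. The test called 3.19% of all genes. The context genes were named in part for being called with an editor, so nothing is read from their count beside that share. Values are KO minus CBE effects on the log2 scale. In deoxynucleotide supply it was 2.12 for SAMHD1. In the proliferation list they were −1.65 for TOP2A, −1.48 for CCNB1, −0.86 for PCNA, −0.73 for MCM3, −0.68 for MCM7 and −0.67 for MKI67. In the other lists they were 0.62 for RPLP2, 0.72 for FTL, 0.59 for MALAT1, 0.74 for KCNQ1OT1, −0.69 for TUG1 and −5.94 for MX1. MX1 had 10 and 2 counts in HOTSCRAMBL KO, so the size of its value is uncertain. Outside that rule, LYZ (1.97), CSF1R (1.22) and BUB1 (−1.40) were among further genes called for the difference. LYZ kept its call under all alternatives run, and CSF1R and BUB1 lost theirs when single libraries were left out. Of the 13 genes, SAMHD1, TOP2A and FTL kept the call under all alternatives run. The other 10 lost it when single libraries were left out, each in 5 to 8 of 8 such fits, and MKI67, PCNA, MCM3, MCM7, MALAT1, KCNQ1OT1 and TUG1 also without the replicate block.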

How the results depend on the processing

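The log2 fold change of APOBEC3C kept its direction under all 17 alternatives run with KO, all 17 with CBE and all 16 for the average. That of APOBEC3B did so under all 16 for the editors. In these comparisons the libraries did not overlap, so refits of the same counts could hardly turn the sign. The kept directions are therefore no further support. The number of members called with KO was 1 with DESeq2 on the same genes and 1 with DESeq2 and its own filter, in place of 0. These fits also called more of all genes with KO, 4150 and 2957 in place of 2108. Nothing about the members is therefore read from the added call. With CBE it was 0 in the fit of only the 4 CBE libraries, in place of 1. Leaving out single libraries, where the lone library of a group is assumed to vary like the others, gave 0 to 1 with CBE, 0 to 1 for the average and 0 to 1 for the editors. No such count moved under the other scalings, voom, no filter or the legacy test. Pairing by labelled line (the replicate block) changed no member call: without it 0 members were called with KO, 1 with CBE (APOBEC3C 1.26, edgeR adjusted p 0.0187), 1 for the average and 1 for the editors. Among named context genes, leaving the line out ended the calls of LIG3, TOP2A and NEAT1 with KO and of LIG1, NEAT1, KCNQ1OT1 and TUG1 with CBE. The fit of only the 4 libraries of a comparison ended those of NEIL1, LIG3, LIG1, APLF, RRM2B, TOP2A and NEAT1 with KO and of LIG1, RRM1, IFIT3, MX1, OAS3, MKI67, NEAT1, KCNQ1OT1 and TUG1 with CBE. Voom ended APLF with KO and IFIT3 and OAS3 with CBE, DESeq2 on the same genes OAS3, total-count scaling RRM1, MKI67 and TUG1, and the legacy test IFIT3.

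Over all genes, KO calls numbered 2108, but 780 with only the 4 libraries, 4150 with DESeq2 on the same genes and 677 to 1674 when single libraries were left out. CBE calls numbered 2124, but 677, 3351 and 586 to 1885. For the average, 2958 became 4863 with DESeq2 on the same genes and 1639 to 2182 without single libraries. For the difference, 767 became 2205 with DESeq2 on the same genes, 1196 with its own filter, 503 without the block and 226 to 372 without single libraries. For the lines, 119 became 715, 307 and, with voom, 265, and 26 to 65 without single libraries. For the editors, 805 became 2221, 1307, 517 without the block, and 196 to 351. Without scaling beyond total counts the median of all genes moved to −0.17 with KO and −0.15 with CBE.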
